A study of Mus musculus with 12 samples.

Results

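Dual-specificity phosphatases of the MAP kinase type and the Sprouty and Spred proteins switch the ERK pathway off, and 9 of their genes, Dusp1, Dusp4, Dusp5, Dusp6, Dusp14, Spry2, Spry4, Spred1 and Spred2, are followed here through the dorsal hippocampus of trained and untrained mice. The 9 genes were taken by symbol from the 24421 genes in the count files, and all 9 were among the 15622 genes that passed the filter on low counts. RNA sequencing of polyadenylated RNA was done on 12 male mice of strain 129sv/C57BL/6j, aged 4 to 5 months, with 1 mouse per library. They form 4 groups of 3: Mbnl2 KO trained, Mbnl2 KO house control, Mbnl2 WT trained and Mbnl2 WT house control. Mbnl2 encodes a muscleblind-like splicing regulator. The labels do not describe the targeted allele, the task or the time between training and dissection. Library totals ran from 19737929 to 27427076 counts, and the 9 genes had between 142 and 5103 counts in a library, far above a floor of 3 counts.

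The ERK pathway carries signals from growth factor receptors and synaptic activity through Ras, Raf and MEK to the kinase ERK, which enters the nucleus and changes transcription. In hippocampal neurons ERK signalling is known for its part in lasting synaptic change and memory. Many genes that ERK switches on encode its own inhibitors: the dual-specificity phosphatases remove phosphate from ERK and related kinases, while Sprouty and Spred proteins act upstream, at the level of receptors, Ras and Raf.

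The targeted gene, Mbnl2, stood at 454 to 542 CPM in the 6 libraries labelled KO and at 315 to 365 CPM in the 6 labelled WT, without overlap (CPM are counts scaled to library size, here after TMM). On the log2 scale KO was 0.51 above WT (SE 0.05, adjusted p = 0.00626 by the edgeR quasi-likelihood test). The count sums all exons and does not show a loss of transcript under the KO label, so genotype directions below are those of the labels. Markers of hippocampal neurons were detected in all libraries, with sums over 10 markers of 400 to 1512 CPM for dentate granule neurons and 527 to 1146 CPM for CA1 and CA2 pyramidal neurons. Sums over 10 choroid plexus markers ran from 54.0 to 15150 CPM, so the dissections differed in neighbouring tissue. Each library carries its own animal number.

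Dusp5 was the member with the clearest training difference, and the 110 bases upstream of its start are shown because they hold a pair of CArG boxes. CArG boxes, the sites of serum response factor, carry ERK and calcium signals to immediate early genes, and CREs are bound by CREB. The Dusp1 stretch, with a full CRE, is shown for contrast. Both are from the RefSeq promoters on GRCm38.p6, read 5′ to 3′ on the strand of the gene. Dusp5 is chr19:53528995-53529104 on the plus strand, bases 150 to 41 before the start, and Dusp1 is chr17:26508563-26508672 on the minus strand, bases 200 to 91 before the start. Capitals mark, in Dusp5, the 2 CArG boxes and then a CRE core on the opposite strand, and in Dusp1 a CRE core and then the full CRE.
Dusp5: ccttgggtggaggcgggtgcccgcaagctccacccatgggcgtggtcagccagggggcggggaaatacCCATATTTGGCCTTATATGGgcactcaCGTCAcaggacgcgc
Dusp1: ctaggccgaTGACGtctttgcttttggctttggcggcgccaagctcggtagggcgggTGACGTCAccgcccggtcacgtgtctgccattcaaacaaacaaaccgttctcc

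In Dusp5 the CArG boxes lie back to back at -82 to -73 and -72 to -63 from the start, and the CRE core (TGACG) is at -55 to -51. At least 2 CArG boxes were found in 6 of the 32851 promoters searched on both strands (0.0183%), and at least 1 in 1.63%. The full CRE (TGACGTCA) of Dusp1, at -143 to -136, contains the core on both strands, and a further core lies at -191 to -187. Over all promoters 1.79% hold the full CRE and 20.8% the core. RefSeq promoters of 300 bases were matched for 7 of the 9 genes. Spred2 holds a single core at -51 to -47, and Dusp6, Dusp14, Spry2 and Spred1 hold neither the core nor a CArG box. The AP-1 site (TGANTCA), the TATA box (TATAAA) and the EGR sites (GCGGGGGCG and GCGTGGGCG) were found in none of the 7 windows, against 7.81%, 13.6%, 2.91% and 0.612% of all promoters. A match is a string of letters and says nothing of binding in this tissue.

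All 9 genes were expressed, and their levels differed several-fold when set per kb of exon (CPM divided by the exon length in GENCODE vM21). Spred1 averaged 25.5 ± 2.60 and Spry2 25.5 ± 3.27 CPM per kb over the 12 libraries (SD), and were not separated by their spread. Spred2 at 18.8 ± 3.43 and Dusp6 at 18.6 ± 4.38 CPM per kb came next, followed by Dusp14 at 14.3 ± 1.51 and Dusp4 at 12.6 ± 3.84 CPM per kb. The nuclear phosphatases Dusp5, at 5.19 ± 1.73, and Dusp1, at 4.41 ± 1.21 CPM per kb, overlapped with each other. Spry4 was at 3.30 ± 0.404 CPM per kb and its range overlapped that of both. The genes also differed in how much they varied over the 12 libraries, a spread that includes differences between the groups. The coefficient of variation of CPM was 33.3% for Dusp5, 30.5% for Dusp4, 27.4% for Dusp1 and 23.5% for Dusp6. It was 10.2% for Spred1 and 10.6% for Dusp14. Within single groups it ran from 5.66% to 23.4% for Dusp5, 22.1% to 44.5% for Dusp4 and 5.14% to 9.60% for Spred1.

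**Figure D1:**
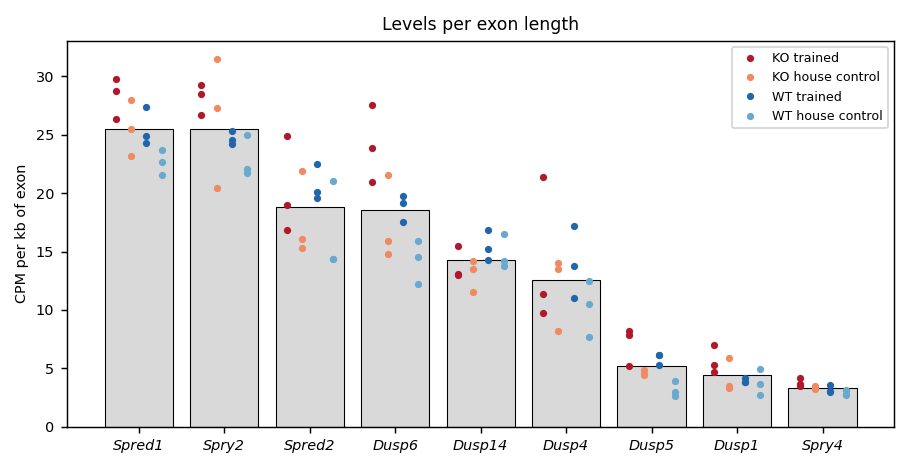
Level of each gene in CPM per kb of exon, with bars for the mean of 12 libraries and 1 point per library in the colours of the 4 groups. Spred1 and Spry2 stand highest at 25.5 CPM per kb and Spry4 lowest at 3.30 CPM per kb.

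The comparison of trained with house control mice asks whether these transcripts follow training. Dusp5, a nuclear phosphatase specific for ERK, was higher in every trained mouse than in every house control mouse, by 1.69-fold on average. Dusp6, its cytoplasmic counterpart, was 1.35-fold higher, and all 9 genes had a positive mean log2 fold change, where 47.7% of the 15622 genes tested did. The members were chosen with earlier results of these data known, so such comparisons with all genes, here and below, only describe. No member passed the threshold with edgeR (adjusted p under 0.05 over all genes), a threshold that 0 genes passed in this comparison (0%), beside 3 members and 1744 genes in all at an unadjusted p under 0.05. DESeq2, which called 69 genes (0.442%), called Dusp5 alone among the 9. In bulk tissue, fewer cells of a type and less RNA per cell cannot be told apart.

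Dusp5 (chr19:53529145-53541809, GRCm38.p6) had 20.2, 12.8 and 19.5 CPM in KO trained libraries and 10.9, 12.1 and 11.2 CPM in KO house control libraries. In WT mice it had 15.3, 15.3 and 13.0 CPM in trained libraries and 7.30, 6.41 and 9.71 CPM in house control libraries. The trained mice thus did not overlap with the house control mice, within either genotype or across both. Such a full separation of 6 from 6 libraries, with trained higher, was found for 31 genes (0.198%), and separation upward within both genotypes for 99 genes (0.634%). The mean log2 fold change was 0.76 (SE 0.13, 95% interval 0.46 to 1.06, edgeR adjusted p = 0.353), which placed Dusp5 at rank 7 of 15622 genes by p. With DESeq2 the adjusted p was 0.000712, and it was at most 0.0122 in the 12 fits that each left out 1 library. How many of all genes these 12 DESeq2 fits called was not counted, here or for the members below.

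Within WT mice Dusp5 was 1.86-fold higher after training, 0.90 on the log2 scale with an SE of 0.19 (adjusted p = 0.502, edgeR), at rank 8 of all genes, where 0 genes passed (0%) and 1534 had an unadjusted p under 0.05. The authors' deposited table gives it a log2 fold change of 0.90 (SE 0.22) and an adjusted p of 0.0456, where 0.117% of genes with an adjusted p passed, and it calls none of the other 8. DESeq2 on all 12 libraries also called it in WT mice (adjusted p = 0.0396, among 0.102% of genes), but the call held in only 4 of the 12 fits that left out 1 library, and its adjusted p reached 0.607 without WT trained replicate 2. Within KO mice it was 1.54-fold higher, 0.62 on the log2 scale with an SE of 0.19 (adjusted p = 1, edgeR). It was the only member whose KO groups did not overlap, where 3.34% of genes were higher in this way. In KO mice 0 genes passed with edgeR (0%), beside 471 at an unadjusted p under 0.05, and 0.0448% passed with DESeq2, which gave Dusp5 an adjusted p of 0.76. Leaving out 1 library, DESeq2 called Dusp5 in KO mice without KO trained replicate 2 (adjusted p = 0.0355) and Dusp6 without KO house control replicate 1 (0.0147). Dusp5 and Dusp6 were the members at an unadjusted p under 0.05 within each genotype, where 0.973% of genes were higher at that level in KO mice and 4.78% in WT mice. The training effects of the 2 genotypes differed by -0.28 (KO minus WT, 95% interval -0.87 to 0.31, edgeR adjusted p = 1), an interval that spans a larger effect in either genotype.

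Dusp6 (chr10:99263231-99267489) had 86.4, 65.7 and 74.7 CPM in KO trained libraries and 67.4, 46.4 and 49.7 CPM in KO house control libraries. Its WT values were 61.9, 60.0 and 54.8 CPM in trained libraries and 45.5, 38.4 and 49.7 CPM in house control libraries. The groups were separate in WT mice and overlapped in KO mice by 1 house control library. Over both genotypes the log2 fold change was 0.44 (SE 0.11, edgeR adjusted p = 0.414), at rank 74 of all genes, and the DESeq2 adjusted p was 0.0556. DESeq2 called it in 4 of the 12 fits that left out 1 library (KO trained replicate 2, KO house control replicate 1, WT house control replicate 1 or WT house control replicate 3), with adjusted p-values from 0.000429, without KO house control replicate 1, to 0.276, without KO trained replicate 1, over the 12.

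Among the other phosphatases, Dusp1, which acts on p38 and JNK as well as ERK and is itself an immediate early gene, averaged 15.9 ± 3.96 CPM in trained and 13.3 ± 3.94 CPM in house control mice (SD, n = 6 each). Dusp4, a nuclear phosphatase close to Dusp1, averaged 38.6 ± 12.2 CPM in trained and 30.3 ± 7.40 CPM in house control mice. Dusp14, a small phosphatase without the docking domain for MAP kinases, averaged 28.4 ± 2.91 and 27.1 ± 3.09 CPM in trained and house control mice. Their log2 fold changes were 0.24, 0.35 and 0.07, with 95% intervals of -0.17 to 0.65, -0.15 to 0.85 and -0.11 to 0.25. Leaving out 1 library gave 0.14 (without WT house control replicate 1) to 0.40 (without KO house control replicate 2) for Dusp1, 0.14 (without KO trained replicate 1) to 0.46 (without KO trained replicate 2) for Dusp4, and 0.03 (without KO trained replicate 2 or KO house control replicate 2) to 0.11 (without WT house control replicate 1) for Dusp14. Trained and house control values overlapped for all 3 genes.

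Of the upstream inhibitors, Spred1 (chr2:117121071-117182279), which brings the Ras inactivator neurofibromin to the membrane, had 195, 202 and 179 CPM in KO trained libraries and 173, 190 and 157 CPM in KO house control libraries. In WT mice the trained libraries had 169, 186 and 165 CPM and the house control libraries 161, 146 and 154 CPM. All WT trained values were above all WT house control values, as they were for Dusp5 and Dusp6, against 7.01% of genes. The WT difference was 0.17 on the log2 scale (SE 0.09, adjusted p = 0.503 by edgeR). Over both genotypes, where trained and house control values overlapped, it was 0.16 (SE 0.06, adjusted p = 0.426). Its relative Spred2 averaged 94.6 ± 12.9 CPM in trained and 79.3 ± 15.6 CPM in house control mice, a log2 fold change of 0.26 (95% interval -0.05 to 0.56). Spry4 averaged 16.6 ± 2.09 and 14.8 ± 1.40 CPM, and Spry2 55.1 ± 4.35 and 51.5 ± 8.69 CPM, in trained and house control mice, with log2 fold changes of 0.16 and 0.10. Dusp5, Dusp6 and Spred1 were the 3 members at an unadjusted p under 0.05, where 4.57% of genes were higher at that level. The median over the 9 genes was 0.24, beside -0.01 over all genes tested.

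**Figure D2:**
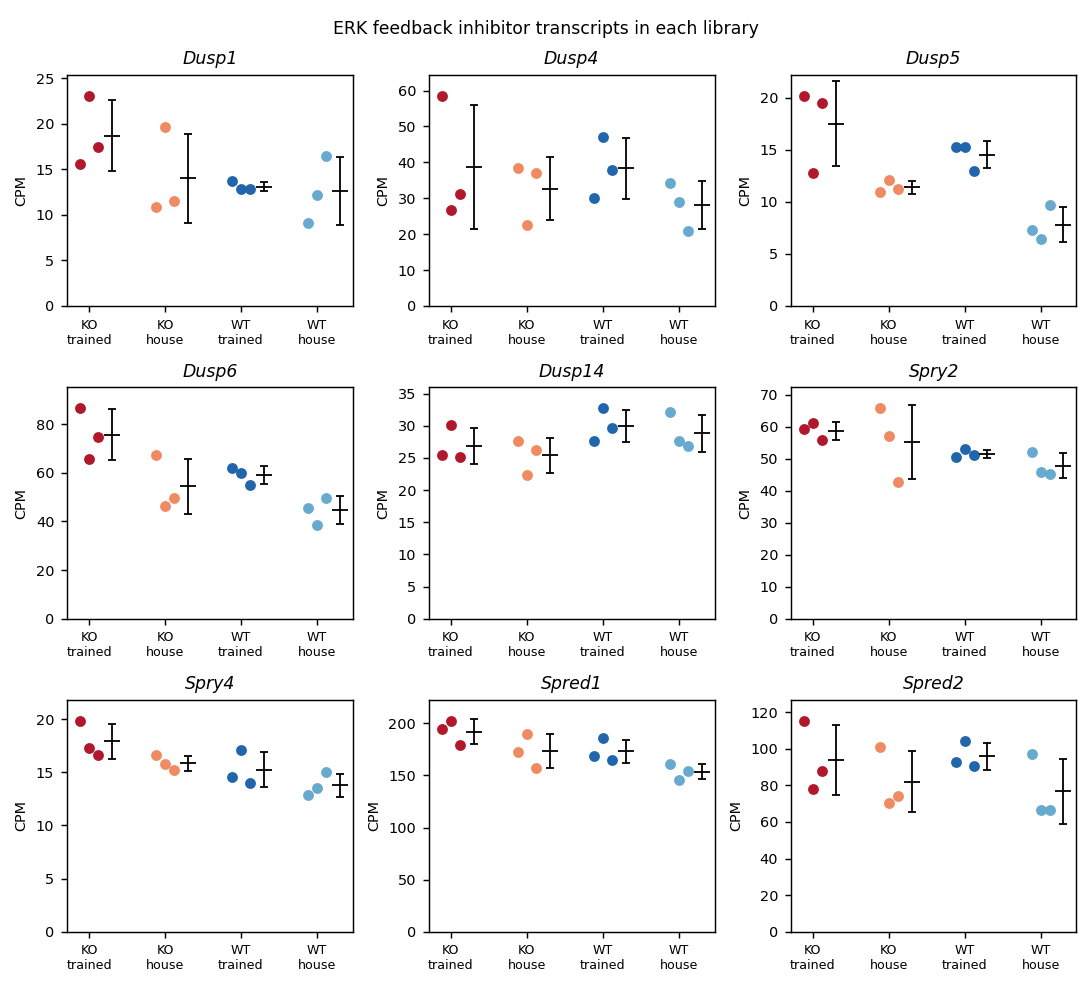
CPM of each gene in the 12 libraries, from a zero base, with points for the 3 mice of each group and a bar for the mean ± SD beside them. In the Dusp5 panel all trained mice, at 12.8 to 20.2 CPM, lie above all house control mice, at 6.41 to 12.1 CPM.

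The comparison of KO with WT asks whether the transcripts follow the Mbnl2 genotype. Over both treatments 8 of the 9 genes had a positive log2 fold change, led by Dusp5 at 0.41, Dusp1 at 0.33 and Dusp6 at 0.33, with Dusp14 alone negative at -0.17. None passed with edgeR, where 90 of 15622 genes did (0.576%), and none with DESeq2 on all 12 libraries, where 725 did (4.64%). DESeq2 fits that left out 1 library called Dusp5 without KO trained replicate 2 (adjusted p = 0.00294) or WT house control replicate 3 (0.0249) and Dusp6 without KO trained replicate 2 (0.0453) or KO house control replicate 2 (0.0432). Without KO house control replicate 3 they called Spry2 (0.00273) and Spred1 (0.0363). The share of all genes called in these fits was not counted. Unadjusted p-values under 0.05 were found for 4 members and for 2254 genes in all. Across all genes 48.0% were positive and 8.54% were higher at that level. These comparisons use the same 12 libraries as those of training. Some lists of cell type markers moved with the genotype labels as well, with 0 called by edgeR. All 10 CA1 and CA2 pyramidal markers were positive (median log2 fold change 0.40, 3 at an unadjusted p under 0.05), with sums of 739 to 1146 CPM in KO and 527 to 959 CPM in WT mice. All 10 dentate granule markers were negative (median -0.57, 3 at that level), with sums of 400 to 1066 CPM in KO and 632 to 1512 CPM in WT mice. All 10 leptomeningeal fibroblast markers were negative too (median -0.89, 3 at that level), with sums of 224 to 690 CPM in KO and 211 to 1895 CPM in WT mice. So were all 10 choroid plexus markers (median -1.38, 0 at that level), with sums of 75.2 to 4756 CPM in KO and 54.0 to 15150 CPM in WT mice. All 10 striatum and septum markers were positive (median 1.01, 0 at that level). Their sums were 237 to 1650 CPM in KO and 233 to 1058 CPM in WT mice, with medians of 285 and 267 CPM. The highest were KO trained replicate 2, at 1650 CPM, and KO house control replicate 2, at 1242 CPM. Other lists of 10 were mixed. Of neocortex markers 7 were positive (4 at that level), and of endothelial markers 7 were negative (4 at that level). Thalamus markers were negative for 9 (1 at that level). Neuron markers were positive for 8 (2 at that level), and astrocyte and microglia markers for 7 each (0 at that level). Oligodendrocyte markers were positive for 4 (0 at that level) and their precursor markers for 6 (2 at that level). No marker of these lists was at 0 in any library, and their part in the genotype values was not tested.

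Dusp5 averaged 14.5 ± 4.26 CPM in KO and 11.2 ± 3.94 CPM in WT mice (SD, n = 6 each), which is 0.41 on the log2 scale with an SE of 0.13 (adjusted p = 0.199, edgeR). The genotype groups overlapped when the treatments were pooled, and in house control mice the KO libraries, at 10.9 to 12.1 CPM, were all above the WT libraries, at 6.41 to 9.71 CPM. That 1.46-fold difference, 0.55 on the log2 scale with an SE of 0.19, had an edgeR adjusted p of 0.378. In trained mice the groups overlapped, with a log2 fold change of 0.27 (95% interval -0.15 to 0.69). Dusp6 averaged 65.1 ± 15.1 CPM in KO and 51.7 ± 8.95 CPM in WT mice (log2 fold change 0.33, SE 0.11, edgeR adjusted p = 0.202), and its KO values were all above its WT values in trained mice.

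Spry4, a Sprouty protein that blocks Ras activation, averaged 16.9 ± 1.61 CPM in KO and 14.5 ± 1.45 CPM in WT mice (log2 fold change 0.22, SE 0.07, edgeR adjusted p = 0.212). In house control mice it had 16.6, 15.8 and 15.2 CPM in KO libraries, all above the WT libraries, which averaged 13.8 ± 1.05 CPM. Spry2 (chr14:105891947-105896819), on the same chromosome as Mbnl2, had 59.4, 61.0 and 55.7 CPM in KO trained libraries and 50.6, 52.9 and 51.2 CPM in WT trained libraries, also without overlap. Its log2 fold change over both treatments was 0.20 (95% interval -0.01 to 0.40). Spred1 averaged 183 ± 16.5 CPM in KO and 164 ± 13.9 CPM in WT mice (log2 fold change 0.16, SE 0.06, edgeR adjusted p = 0.273). In all, KO was above WT without overlap for Dusp1, Dusp6 and Spry2 in trained mice, where 7.61% of genes were, and for Dusp5 and Spry4 in house control mice, where 6.94% were. Within a treatment edgeR called 0 members and 2 of 15622 genes in each case (0.0128%). At an unadjusted p under 0.05 there were 2 members among 1008 genes in trained mice and 1 member among 1668 in house control mice, and 3.74% and 6.11% of genes were higher at that level in trained and in house control mice. DESeq2 called 0 members beside 0.679% of genes in trained mice and 1.29% in house control mice, with Spry2 called in house control mice when KO house control replicate 3 was left out (adjusted p = 0.0327).

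Dusp4, Spred2 and Dusp14 did not share a genotype direction. Dusp14 averaged 26.2 ± 2.55 CPM in KO and 29.4 ± 2.48 CPM in WT mice (log2 fold change -0.17, 95% interval -0.35 to 0.01). Dusp4 averaged 35.7 ± 12.7 CPM in KO and 33.2 ± 8.83 CPM in WT mice, and its log2 fold change of 0.12 turned to -0.10 without KO trained replicate 1, which alone had 58.6 CPM. Spred2 averaged 87.7 ± 17.1 CPM in KO and 86.2 ± 16.1 CPM in WT mice, and its log2 fold change of 0.03 turned negative, to as low as -0.06, when any of 4 libraries was left out. The difference between the training effects of KO and WT mice ran from -0.28 for Dusp5 to 0.36 for Dusp1, with 4 genes positive and 5 negative. Its edgeR adjusted p was 1 for all 9, with 0 members and 235 genes at an unadjusted p under 0.05 and 0 genes called by edgeR or DESeq2 (0%).

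**Figure D3:**
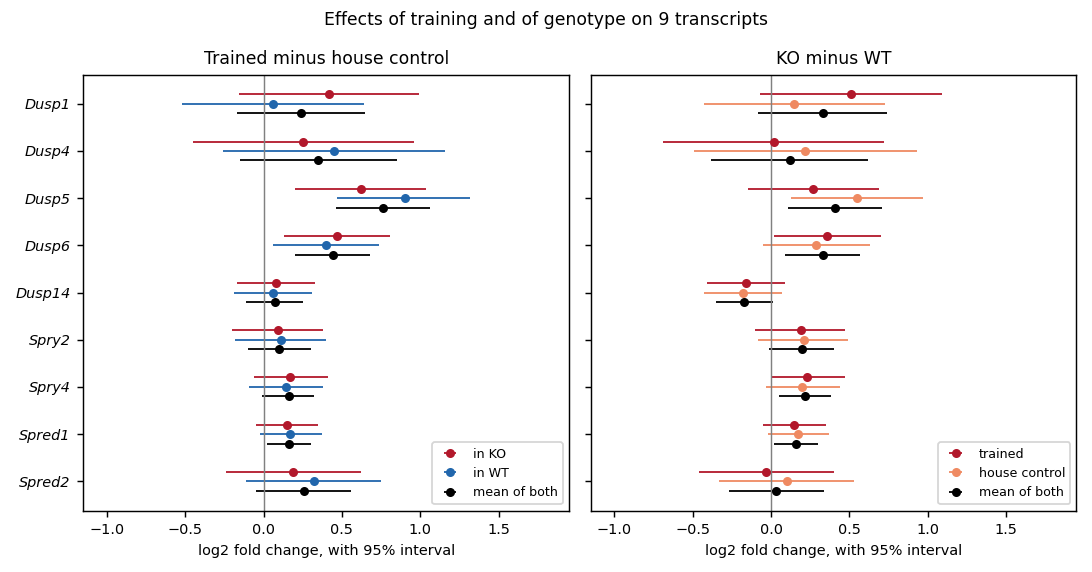
Log2 fold changes with 95% intervals for trained minus house control (left) and KO minus WT (right), each within the 2 strata and as their mean. Dusp5 and Dusp6 have training intervals above 0 in both genotypes, and Dusp14 is the only gene with a negative mean genotype value.

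Pairs of the members were compared over the 12 libraries. Of the 36 pairs, 28 had a positive Pearson r of log2 CPM, with r from -0.44 to 0.86 over all pairs. A Benjamini-Hochberg adjusted permutation p under 0.05 over the 36 was found for 6. The share of pairs of other genes at these levels was not counted, so the counts are not particular to the members. Dusp5 and Dusp6 had r = 0.86 (permutation p = 0.00055, adjusted 0.0131) and Spearman's rho 0.78 (permutation p = 0.00488, adjusted 0.0393). Without the 2 libraries farthest from the Dusp5 median r was 0.76, after removing the group means 0.54, and in the 8 libraries of the first animal number series 0.85. The permutations moved libraries across the groups, so their p-values also take in differences between groups that 2 genes share. The r after removing the group means was not tested for any pair. Dusp4 and Spred2 had r = 0.83 (permutation p = 0.00073, adjusted 0.0131) and rho 0.83 (permutation p = 0.00133, adjusted 0.0215), with 0.70, 0.79 and 0.87 in the same 3 checks. Dusp6 and Spry4 had r = 0.82 (permutation p = 0.00135, adjusted 0.0162) and rho 0.76 (permutation p = 0.00546, adjusted 0.0393), with 0.65, 0.55 and 0.85. Dusp1 and Dusp4 had r = -0.42 (permutation p = 0.169, adjusted 0.274), rho -0.51 (permutation p = 0.0932, adjusted 0.24) and -0.84 after removing the group means, so that mice high in Dusp1 for their group tended to be low in Dusp4. The -0.84 was the lowest of the 36 values after removing the group means. Without the 2 libraries farthest from the Dusp1 median the r of -0.42 became -0.16.

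**Figure D4:**
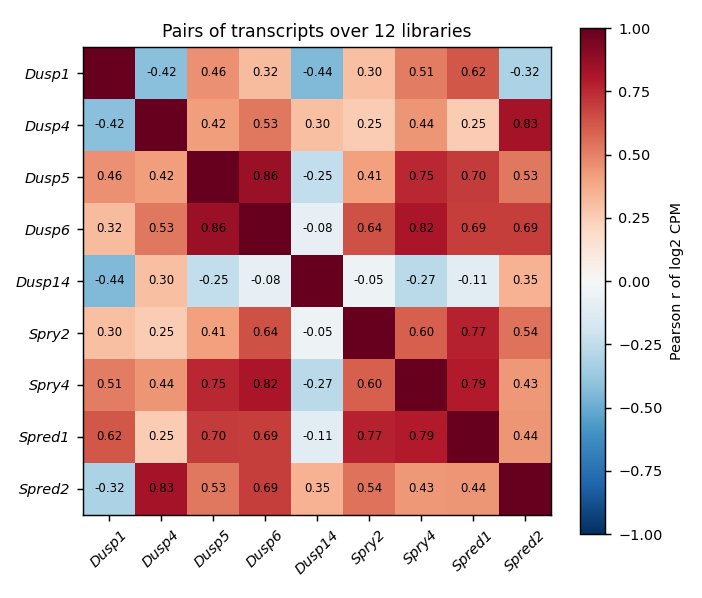
Pearson r of log2 CPM between the 9 genes over 12 libraries, as a colour from -1 to 1 with the value in each cell. Dusp5 with Dusp6 is the highest pair at 0.86, and Dusp14 has a negative r with 6 of the other genes.

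Genes most like each member were ranked by r over the 12 libraries among 13291 genes with a mean of at least 1 CPM, as a description. Dusp6 was most like Junb, an AP-1 transcription factor and immediate early gene, with r = 0.94. Spred1 was followed by Slc29a2, a nucleoside transporter, and by Hras, the Ras protein itself, both at 0.94. Dusp5 was most like Usp32, a ubiquitin protease, at 0.96 and Man1a2, a mannosidase of the Golgi, at 0.94. Dusp1 was most like Map1lc3a, an autophagy protein, at 0.94, and Dusp4 like the zinc finger gene Zfp712 at 0.96. Spred2 was most like Rai1 and the histone methyltransferase Ash1l at 0.97, Spry2 like Kctd1 at 0.94, Spry4 like the deubiquitinase Usp21 at 0.93 and Dusp14 like Armt1 at 0.93. The libraries differed in tissue composition, and its part in these values was not tested.

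Tissue markers moved beside several members. For Dusp1, the 3 libraries with the highest sums over 10 striatum and septum markers were KO trained replicate 2, KO house control replicate 2 and WT house control replicate 3, at 1650, 1242 and 1058 CPM against 233 to 311 CPM in the other 9. In the same order they had 23.1, 19.6 and 16.5 CPM of Dusp1, each the highest of its group. Their oligodendrocyte marker sums, at 8877, 13959 and 12648 CPM, were also the highest of their groups. Both KO libraries had the highest neocortex sums of their groups too, at 732 and 718 CPM, and the WT library had the lowest, 402 CPM. The mean genotype log2 fold change of Dusp1 was 0.33 with all libraries and 0.09 without KO replicate 2 of both treatments. That fit drops the highest Dusp1 value of each KO group and keeps WT house control replicate 3, so a fall followed from the choice of libraries. For Dusp4, the libraries with the lowest oligodendrocyte marker sums, at 3730 CPM in KO trained replicate 1, 2805 CPM in WT trained replicate 2 and 3239 CPM in WT house control replicate 1, had 58.6, 47.1 and 34.2 CPM of Dusp4, each the highest of its group. In KO house control mice the lowest sum, 5555 CPM in replicate 1, also went with the highest Dusp4 value, 38.4 CPM. These same libraries had the highest dentate granule marker sums of their groups. They were 941 CPM in KO trained replicate 1 and 1066 CPM in KO house control replicate 1. In WT mice they were 1512 CPM in trained replicate 2 and 1383 CPM in house control replicate 1. The oligodendrocyte precursor sums of these libraries were the lowest of their groups. The part of these tissues in the values of Dusp1 and Dusp4 was not tested.

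Beside the training difference of Dusp5, sums over 10 endothelial markers were 223 to 257 CPM in trained and 255 to 379 CPM in house control mice. All 10 of these markers had a negative training log2 fold change, 8 of them at an unadjusted p under 0.05 and 0 called by edgeR. All 10 thalamus markers were also negative, 6 at an unadjusted p under 0.05, with sums of 167 to 369 CPM in trained and 179 to 638 CPM in house control mice. Glial markers lay in the same direction: all 10 oligodendrocyte markers (median log2 fold change -0.60, 0 at an unadjusted p under 0.05), all 10 oligodendrocyte precursor markers (-0.26, 4 at that level), all 10 astrocyte markers (-0.21, 5 at that level) and 9 of 10 microglia markers (-0.21, 5 at that level) were negative. Of 10 general neuron markers 8 were positive, 4 of them at that level, with a median of 0.20, beside 0.24 for the 9 members. Their sums were 12786 to 16661 CPM in trained and 9805 to 16028 CPM in house control mice. In WT mice the neuron median was 0.28, with 5 at that level. EdgeR called 0 of these markers, none was at 0 in any library, and their part in the training values of the members was not tested. A further fit left out 3 house control libraries with much choroid plexus or thalamus RNA (WT replicates 2 and 3, KO replicate 3). Their choroid plexus marker sums were 8034, 15150 and 2667 CPM. All trained libraries were kept, including WT trained replicate 3 at 7876 CPM. The mean training log2 fold change was then 0.80 for Dusp5 and 0.39 for Dusp6. That fit leaves 1 WT house control library, which is assumed to vary like the other groups. In the first animal number series alone the mean training log2 fold change was 0.84 for Dusp5 and 0.48 for Dusp6. In that series the house control animal numbers, 1188 to 1194, all come before the trained ones, 1196 to 1240. Training and the order of animal numbers therefore cannot be told apart there. The second series has 1 library per group and was not fitted alone. With the series as a covariate the values were 0.76 and 0.44.

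**Figure D5:**
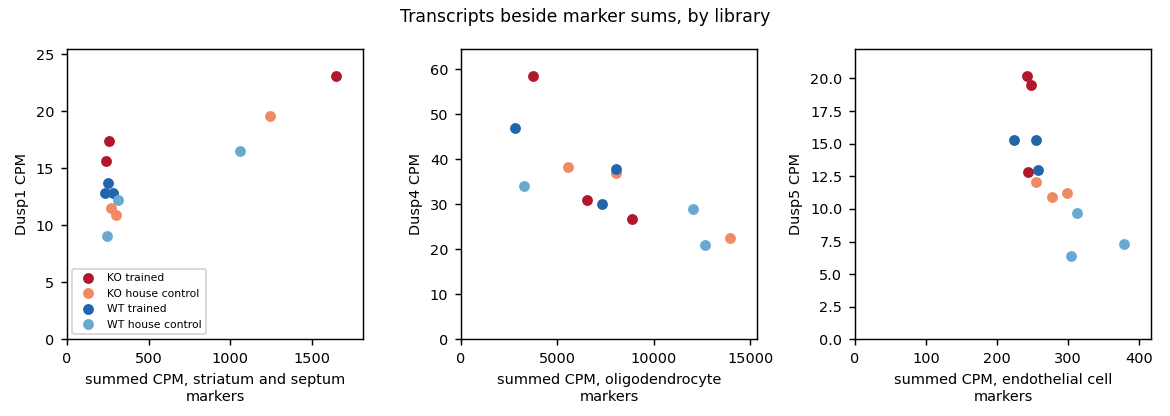
CPM of Dusp1, Dusp4 and Dusp5 (vertical) against the summed CPM of 10 striatum and septum, oligodendrocyte and endothelial markers (horizontal), with 1 point per library. The 3 libraries at 1058 to 1650 CPM of striatum and septum markers include the 2 highest Dusp1 values, and high Dusp4 lies at low oligodendrocyte sums.

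Other genes of the pathway were taken from lists. Among the other MAP kinase phosphatases 5 of 6 were tested, and their median training log2 fold change was 0.09, with 3 positive, 2 negative and 0 called by edgeR in either mean effect. Dusp8, first by p for genotype, had 0.18 (SE 0.10, edgeR adjusted p = 0.433), and Dusp16, first by p for training, had -0.36 (SE 0.18, edgeR adjusted p = 0.452). In the group of other dual-specificity phosphatases, 12 of 13 were tested, with a training median of -0.02. Dusp3, a small phosphatase of ERK and JNK, was first of these by p for genotype. It averaged 251 ± 20.2 CPM in KO and 201 ± 16.4 CPM in WT mice. All KO values were above all WT values, as for 1.06% of genes. The log2 difference was 0.32 (SE 0.07, adjusted p = 0.0666 by edgeR). For the remaining Sprouty and Spred genes, Spred3 averaged 52.8 ± 7.17 CPM in KO and 43.5 ± 5.66 CPM in WT mice and Spry1 13.7 ± 2.47 CPM in KO and 17.2 ± 1.37 CPM in WT mice (log2 fold changes 0.28 and -0.33, edgeR adjusted p = 0.197 and 0.216). Spry3 averaged 17.0 ± 1.65 CPM in trained and 14.6 ± 1.88 CPM in house control mice (log2 fold change 0.23, edgeR adjusted p = 0.414).

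Rasal1, a calcium-responsive Ras GTPase-activating protein that switches Ras off, rose in KO mice. It averaged 99.8 ± 9.56 CPM in KO and 59.6 ± 11.6 CPM in WT mice (SD, n = 6 each), with ranges of 81.1 to 107 and 42.1 to 73.8 CPM. All KO values were above all WT values, as for 1.06% of genes. The log2 fold change was 0.75 (SE 0.10, edgeR adjusted p = 0.0183). The call was lost without KO trained replicate 1 (adjusted p = 0.0608), without WT trained replicate 3 (0.0742), without KO replicate 2 of both treatments (0.0707), without the 3 house control libraries named above (0.105) and in the first series alone (0.304), where the log2 fold change was 0.71. Over the 14 listed inhibitors of Ras-ERK signalling, 12 were positive for KO against WT with a median of 0.12. Dab2ip, another Ras GTPase-activating protein, averaged 138 ± 15.2 CPM in KO and 105 ± 7.14 CPM in WT mice (log2 fold change 0.39, SE 0.08, edgeR adjusted p = 0.0592).

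In the Ras, Raf, MEK and ERK cascade 0 of 20 genes were called by edgeR in either mean effect. For training the median was 0.04 with 3 genes at an unadjusted p under 0.05, and for genotype it was -0.00 with 8 such genes. Hras averaged 111 ± 8.58 CPM in KO and 94.5 ± 7.57 CPM in WT mice (log2 fold change 0.23, edgeR adjusted p = 0.093). Mapk3, which encodes ERK1, averaged 127 ± 7.55 CPM in KO and 161 ± 23.9 CPM in WT mice (log2 fold change -0.34, edgeR adjusted p = 0.13). ERK target transcription genes had a training median of 0.08 over 13 genes, and Elk3, an ETS factor, averaged 10.1 ± 0.549 CPM in trained and 13.7 ± 2.47 CPM in house control mice (log2 fold change -0.43, SE 0.08, edgeR adjusted p = 0.353). The rapid activity-induced genes, such as Fos and Arc, had a training median of 0.65, with 18 of 20 positive, 13 at an unadjusted p under 0.05 and 0 called by edgeR. For KO against WT, 1 of the 20 was called, the nuclear receptor gene Nr4a1, at 60.0 ± 21.7 CPM in KO and 34.8 ± 7.75 CPM in WT mice (log2 fold change 0.75, SE 0.11, edgeR adjusted p = 0.0225). That call was lost in 4 of the 12 edgeR fits that each left out 1 library (WT trained replicate 2, WT trained replicate 3, KO trained replicate 1, or replicate 2 of the KO house control mice), with adjusted p-values up to 0.0811, without KO replicate 2 of both treatments (0.0743), without the 3 house control libraries (0.209) and in the first series alone (0.313). The KO and WT ranges of Nr4a1 overlapped. The training values of 0.76 for Dusp5 and 0.44 for Dusp6 lay above and below the training median of this list.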

How the data were processed

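Per the labels' protocols, total RNA was purified with the RNeasy kit and polyadenylated RNA was made into NEBNext Ultra II libraries. The authors deposited raw counts per gene symbol for each library. Build mm10 and the tools HTSeq 0.9.1, TopHat2 2.1.1, Bowtie2 2.3.4.2, DESeq2 1.18.1 and cutadapt 1.18 are named in the submitters' processing notes. The sources used here do not give the strand setting of the counting, and overlapping or antisense genes may share reads. The authors also deposited 4 pairwise tables, with columns, per the file headers, for the p-value before and after adjustment, the test score, the log2 fold change with its error and the mean signal after normalization.

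The counts went into edgeR 4.0.16 under R 4.3.3: filterByExpr (minimum count 10, total 15), TMM, a robust quasi-likelihood fit of the 4 groups (8 residual degrees of freedom), 7 contrasts and Benjamini-Hochberg adjustment over 15622 genes at 0.05. Standard errors are those implied by the F statistic. An exact permutation of 3 against 3 libraries cannot give a p below 0.1. Simulated counts with known changes were used to check the fit. Permutation tests of correlations used 100000 resamples, two-sided. DESeq2 1.42.0, no filter, scaling by median of ratios, the animal number series and left-out libraries were tried as alternatives.

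Groups came from the labels. Animal numbers fall into 2 series of 8 and 4 libraries. No 2 libraries of a group were identical. The members and lists were chosen with earlier results of these data known. Named genes were the 9 members, Mbnl2, up to 2 genes of each list with the smallest p in each mean effect and any called, and the 3 genes most like each member, of which 1 to 3 are given. Fos and Arc were named after their values were seen. Positions and promoters are those of RefSeq GRCm38.p6, the build of the files. Intervals and floors cover counting or replicate error only.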

Additional observations from a re-analysis of the deposited data

How the results depend on the processing

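Over the 9 members in the 7 comparisons, 64 of 1233 alternative log2 fold changes changed sign, 31 of them in the difference of the training effects. For the mean genotype effect, Dusp4 was -0.08 and Spred2 -0.11 when 3 house control libraries with much choroid plexus or thalamus RNA were left out. Leaving out 1 library gave Dusp4 -0.10 to 0.23 and Spred2 -0.06 to 0.14. Dusp14 in the mean training effect was -0.01 without KO replicate 2 of both treatments. Without the 3 house control libraries, Spry2 in the mean training effect was -0.04 and the Dusp1 difference of training effects was -0.23. The cause was not tested. The fits with DESeq2 on 11 libraries were chosen after seeing the data, and the share of all genes called in them was not counted.

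Members were called with DESeq2 only: on all libraries Dusp5, for training in WT mice and for the mean training effect, and with 1 library left out also Dusp6, Spry2 and Spred1 in the comparisons given above. Genes called depended strongly on the test. For KO against WT in trained mice 2 were called with edgeR, 106 with DESeq2, 4 with the series as a covariate, and 1 each in the first series, without the 3 house control libraries, without KO replicate 2 of both treatments and with the 6 libraries alone, and 1 to 2 with a library left out. For KO against WT in house control mice the counts were 2, 202, 4 and 1 in the same order up to the first series, 0 under the last 3 alternatives, and 0 to 12 with a library left out. For training, DESeq2 called 7 genes in KO, 16 in WT and 69 in the mean effect, where edgeR called 0, and leaving out a library gave 0 to 1 in each. The first series called 1 gene in the mean training effect. The mean genotype effect had 90 genes with edgeR, 725 with DESeq2, 59 with no filter, 166 with the covariate, 2 in the first series, 1 without the 3 house control libraries, 26 without KO replicate 2, and 8 to 268 with a library left out. Fits on fewer libraries have fewer degrees of freedom. The highest counts with a library left out, 268 for the mean genotype effect and 12 in house control mice, both came without WT house control replicate 1. Why the counts changed between settings was not tested. No paired analysis was possible because replicates were numbered by accession, which pairs no mice. The lowest member count was 142, and each group has 3 mice. Whether depth or the number of mice limits precision more was not compared.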

Other observations

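Further lists around the pathway showed small shifts. Of 12 ligands of receptor tyrosine kinases, 6 were positive and 6 negative for training and 0 were called by edgeR, with 2 negative and 0 positive at an unadjusted p under 0.05. Hbegf, an EGF receptor ligand, averaged 9.70 ± 1.48 CPM in KO and 7.66 ± 0.639 CPM in WT mice (log2 fold change 0.34, edgeR adjusted p = 0.201), and Ntf3, a neurotrophin, 8.62 ± 2.11 CPM in KO and 12.9 ± 2.69 CPM in WT mice (log2 fold change -0.58, edgeR adjusted p = 0.24). Of 11 receptor tyrosine kinases, 7 were negative for training, with Pdgfra, a receptor of oligodendrocyte precursors, at 66.0 ± 8.58 CPM in trained and 77.5 ± 6.53 CPM in house control mice (log2 fold change -0.23, edgeR adjusted p = 0.433). Among 12 adaptors and exchange factors, Rasgrp1, a Ras exchange factor, averaged 1139 ± 141 CPM in trained and 956 ± 161 CPM in house control mice (log2 fold change 0.26, edgeR adjusted p = 0.441). In the JNK and p38 cascade 8 of 12 genes were positive for training, with Mapk10, which encodes JNK3, at 435 ± 32.9 CPM in trained and 374 ± 45.3 CPM in house control mice (log2 fold change 0.22, edgeR adjusted p = 0.428).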
